A study of Mus musculus with 3 samples.

Results

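Naive-like CD4 T cells in mouse peripheral blood (PB) were followed from healthy animals into advanced leukemia by single-cell RNA sequencing. A barcode was counted as a naive-like CD4 T cell when it held at least 2 unique molecular identifiers (UMIs, each standing for 1 captured RNA molecule) of *Cd3d*, *Cd3e* and *Cd3g* together, at least 1 UMI each of *Cd4* and *Lef1*, none of *Cd8a*, *Cd8b1* or *Foxp3*, at most 1 of *S100a4* and at most 1 of *F13a1* and *Fn1* together. Barcodes were considered where 200 or more genes were detected and mitochondrial UMIs did not exceed 10%. Of these 12792 barcodes, 728 met the rule, with 640 of 3811 in the naive library, 71 of 4567 at D11 and 17 of 4414 at D14. The naive library came from wild-type Balb/C mice, and the D11 and D14 libraries came from Balb/C mice that had received BBC2 cells and were bled 11 and 14 days later. BBC2 is a line of stem cell leukemia/lymphoma syndrome (SCLL), a pro-B-like leukemia driven by the BCR-FGFR1 kinase, and its cells carry GFP. The methods describe young adult females as hosts, and red cells were lysed and dead cells removed before 10x Genomics 3′ v3 capture. Each condition was a single library, and the number of mice in each is not given in the sources used here. Differences between conditions therefore cannot be told apart from differences between libraries, no test of them was possible, and every interval given for them covers counting error only.

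Naive CD4 T cells leave the thymus, recirculate through blood and lymphoid organs by way of homing receptors such as CCR7, and live on signals from IL-7 and from self peptides on MHC class II. The transcription factors LEF1 and TCF1 (encoded by *Tcf7*) hold them in a resting, multipotent state. After they meet antigen they turn down this program and take up that of effector or memory cells, which in the mouse includes S100 proteins such as S100A4.

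Because the rule reads 11 genes, the levels of these genes in the members describe the rule and are not results. *Cd4* (GRCm38 chromosome 6, 124864692 to 124888221, minus strand) was seen as a single UMI in 186, 34 and 9 members of the naive, D11 and D14 libraries, while 217, 47 and 22 barcodes met every other term and had no *Cd4* UMI. *Lef1* (chromosome 3, 131110471 to 131224356, plus strand) was far from its threshold, with medians of 17, 12 and 16 UMIs per member. Only 2, 2 and 1 members held a single *Lef1* UMI, and 3, 4 and 4 barcodes were left out for having none. The CD3 sum had medians of 14, 7 and 9 UMIs, with 13, 5 and 0 members at the threshold of 2.

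The 3 libraries differed in ways that touch these cells. Hemoglobin transcripts took 11.2%, 55.9% and 22.5% of the 30362408, 57640396 and 65861863 UMIs of the naive, D11 and D14 libraries, the order used for all triplets of values from here on. Among the members themselves, 8, 10 and 1 cells held more than 1% hemoglobin UMIs, and hemoglobin made up 0.222%, 10.4% and 2.17% of their summed UMIs. The libraries shared 12 barcodes (naive and D11), 14 (naive and D14) and 18 (D11 and D14), 1 naive member carried a barcode that also occurs in the D14 library, and no barcode was a member in 2 libraries. The members had medians of 9230, 6457 and 7604 UMIs and of 2830, 2075 and 2559 genes, with median mitochondrial shares of 2.85%, 2.93% and 2.94%. Their sums came to 6029671, 480056 and 134379 UMIs, so that 3 UMIs, the most that a count of 0 allows, correspond to 22.3 CPM at D14, where CPM is the UMI count of a gene scaled to the total of the sum.

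The label was checked with genes that the rule does not use. At least 1 UMI of *Trac*, *Trbc1* or *Trbc2*, the constant regions of the T cell receptor (TCR), was found in 99.2%, 100% and 100% of members. *Tcf7* was detected in 98.0%, 93.0% and 94.1% of members at 710, 554 and 752 CPM, against 6.6, 1.8 and 2.5 CPM in barcodes positive for the B cell genes *Cd79a* and *Ms4a1*. *Igfbp4*, an insulin-like growth factor binding protein long used as a marker of naive CD4 T cells, was detected in 71.4%, 47.9% and 41.2% of members. Regulatory T cell genes were at 77.9, 95.8 and 67.0 CPM summed over *Ikzf2*, *Il2ra* and *Ctla4*. The platelet list was at 8.62, 10.4 and 0 CPM, with no UMI of any of its genes at D14. Transcripts of other cell types were also present. More than 1% hemoglobin, more than 2 UMIs of B cell genes or more than 10 of neutrophil genes were found in 25, 12 and 2 members, called members with foreign transcripts from here on, and 13, 5 and 1 members held no *Tcf7* UMI. The hemoglobin, neutrophil and B cell lists summed to 2228, 104061 and 21730 CPM, to 597, 1675 and 1823 CPM and to 234, 81.2 and 700 CPM. T cell receptor transcripts were thus found in nearly all members, beside those of other cells. Values without the members that carried foreign transcripts are given where they change a call, but such transcripts also occur below these limits. In the members then left, *Hbb-bs* was at 98.2, 1175 and 320 CPM, with a UMI in all 59 at D11. *S100a9* was at 39.4, 123 and 329 CPM in them.

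Naive-like CD4 T cells took a smaller share of kept barcodes in the leukemic libraries. They made up 16.8% of kept barcodes in the naive library (95% Clopper-Pearson interval 15.6 to 18.0), 1.55% at D11 (1.22 to 1.96) and 0.385% at D14 (0.225 to 0.616). The D11 share was 10.8-fold lower than the naive share and the D14 share 43.6-fold lower. The size of the difference depended on the cells it was counted over. Over barcodes with under 10% hemoglobin UMIs the shares were 17.2%, 2.30% and 0.526%, which is 7.48-fold and 32.8-fold lower. Over barcodes with at least 2 CD3 UMIs they were 45.6% of 1403, 11.9% of 597 and 4.76% of 357, which is 3.84-fold and 9.58-fold lower. Of the barcodes with CD3 transcripts, 816, 148 and 55 held a *Cd4* UMI, and whether the rest were T cells was not tested. The order of the libraries was the same with all 3 denominators. A share also depends on the numbers of other cells, and these counts do not give numbers per volume of blood.

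Over all kept barcodes, the other lymphocyte gates were lower by less than the naive-like CD4 T cells, or not lower. For each CD4 T cell with at least 2 *S100a4* UMIs, a memory-like gate with the CD3, *Cd4*, *Cd8a*, *Cd8b1*, *Foxp3*, *F13a1* and *Fn1* terms of the rule and no *Lef1* term, there were 22.9 naive-like cells in the naive library (exact interval 15.7 to 34.7), 1.97 at D11 (1.30 to 3.03) and 1.13 at D14 (0.532 to 2.44). The memory-like gate itself held 28, 36 and 15 barcodes, or 0.735%, 0.788% and 0.340% of those kept, and its D11 share was 1.07 times the naive share (0.637 to 1.83). Within CD4 T cells the naive-like cells thus outnumbered the memory-like ones by most in the naive library. For each naive-like CD8 T cell, defined by the same rule with the *Cd4* and *Cd8a* plus *Cd8b1* terms exchanged, there were 3.2 (2.73 to 3.77), 2.29 (1.48 to 3.61) and 0.773 (0.385 to 1.52) naive-like CD4 T cells. The intervals of the naive and D14 libraries do not overlap in either of these ratios, and those of D11 and D14 do. Naive-like CD8 barcodes numbered 200, 31 and 22, and their share was 7.73-fold lower at D11 and 10.5-fold lower at D14. For each *Foxp3*-positive CD4 T cell the ratio was 9.41, 2.63 and 1. B cells, counted as barcodes positive for *Cd79a* and *Ms4a1*, gave 1.98, 0.324 and 0.347 naive-like CD4 T cells per B cell, and this last ratio did not differ between D11 and D14 beyond its counting intervals (0.244 to 0.426 and 0.187 to 0.613). The B cell gate has no term against the pro-B-like leukemia cells, and its barcodes had medians of 6435, 6026 and 10008 UMIs. Whether leukemia cells were among them was not tested.

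**Figure D1:**
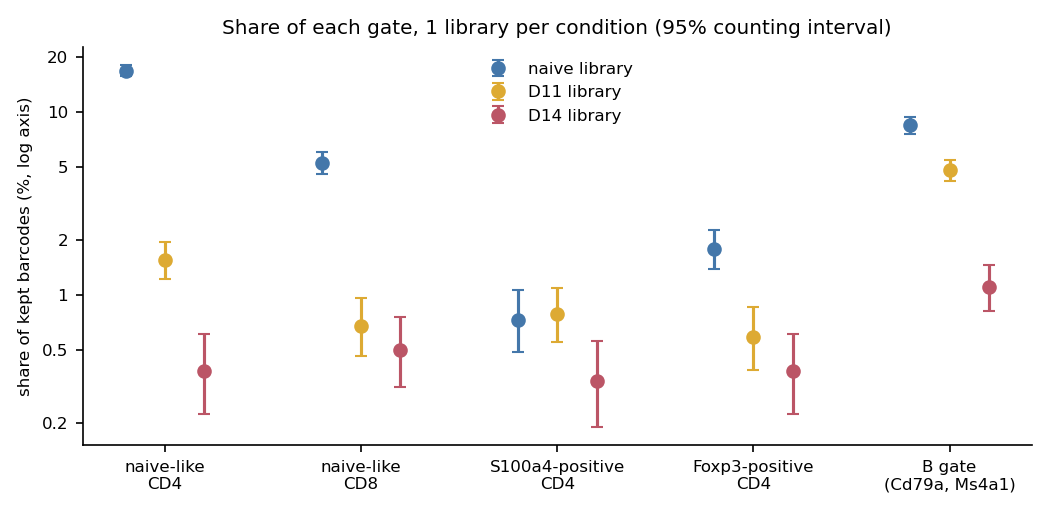
Share of kept barcodes (percent, log axis) in each of 5 gates, with 1 point for each of the naive, D11 and D14 libraries and bars for the 95% Clopper-Pearson interval. Naive-like CD4 T cells go from 16.8% to 1.55% and 0.385%, while the memory-like S100a4-positive CD4 cells are at 0.735%, 0.788% and 0.340%.

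The order of the libraries was the same at equal depth. With every barcode thinned to 2000 UMIs before the rule was applied, 262 of 3581 naive, 30 of 4113 D11 and 7 of 3883 D14 barcodes were members. The memory-like gate then held 14, 8 and 3 barcodes, and the naive-like CD8 gate 135, 12 and 14. At this depth the memory-like gate thus no longer held more barcodes at D11 than in the naive library. The naive and D11 libraries also changed places in CD4 barcodes per CD8 barcode, though only 12 CD8 barcodes were left at D11.

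Genes of the naive program were detected in the members of all 3 libraries. The rule leaves out cells without *Lef1* or with more *S100a4*, so the levels describe only the cells that met it. In simulated data, 40 of 84 genes changed 2-fold were past 2-fold at D11 and 34 of 81 at D14. Changes near 2-fold can thus be missed. Of 12 transcription factors and quiescence genes past the minimum (a mean of 100 CPM over the 3 libraries), none was 2-fold higher or lower than naive at D11 or at D14, against 0.632% of all 1741 genes past the minimum that were at least 2-fold higher and 1.09% that were at least 2-fold lower at D11, and 2.64% and 1.95% at D14. Of the 11 genes higher at D11, 4 were hemoglobin and 3 neutrophil genes, and 11 of the 19 lower were ribosomal protein genes. Between the leukemic libraries, 3.10% of genes were at least 2-fold higher and 1.55% at least 2-fold lower at D14 than at D11. The median log2 ratio of these factors was -0.20 at D11 and 0.19 at D14, beside medians of -0.10 and 0.05 over all genes past the minimum. The log2 ratio of the summed list was -0.10 at D11 (-0.14 to -0.07) and 0.27 at D14 (0.21 to 0.33). With trimmed mean of M values (TMM) scaling the median of all genes at D14 was -0.14, so that ratios at D14 are best read against that of all genes.

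*Foxp1*, which keeps T cells quiescent, was at 2748, 2685 and 3029 CPM, and *Ets1*, a factor needed for T cell survival, at 1324, 1329 and 1630 CPM. *Satb1*, a chromatin organizer of T cells, was at 2073, 1862 and 3326 CPM, with a log2 ratio of 0.68 at D14 (0.54 to 0.82). *Bach2*, a repressor of effector programs, was at 1759, 2041 and 2686 CPM (0.61 at D14, 0.46 to 0.76). Both were highest at D14, and neither reached 2-fold. *Klf2*, which drives the genes for egress and homing, was at 778, 554 and 647 CPM, lowest at D11 (-0.49, -0.67 to -0.31).

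Its target *S1pr1*, the receptor by which T cells leave lymphoid tissue along a lipid gradient, was lower in both leukemic libraries, at 312, 171 and 223 CPM. The log2 ratio was -0.87 at D11 (-1.21 to -0.55) and -0.48 at D14 (-1.06 to 0.03), so that at D14 it was within counting error. *Ccr7* was at 332 and 323 CPM in the naive and D11 libraries and at 201 CPM at D14 (-0.72, -1.33 to -0.18), and its transcript was found in 90.0%, 69.0% and 70.6% of members. *Itgb7*, an integrin chain used for entry to the gut, was at 217, 167 and 112 CPM. None of the 6 homing receptors past the minimum reached 2-fold at either time, and their medians were -0.23 and -0.42. Of all genes past the minimum, 0.632% were higher and 1.09% lower at D11, and 2.64% and 1.95% at D14. *Itgb7*, at -0.96 at D14, was past 2-fold there with TMM (-1.14) and without the 25, 12 and 2 members that carried hemoglobin, B cell or neutrophil transcripts (-1.13, -2.14 to -0.29).

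*Igfbp4* (chromosome 11, 99041244 to 99054392, plus strand) and *Dapl1* were lower in both leukemic libraries. *Igfbp4* was at 357, 242 and 231 CPM, a log2 ratio of -0.56 at D11 (-0.85 to -0.29) and -0.63 at D14 (-1.19 to -0.12). In members thinned to 2000 UMIs each, which left out 4 naive cells, 40.4%, 19.7% and 11.8% held a UMI of it. Without the members that carried foreign transcripts its ratio was -0.28 at D11 (-0.57 to 0.00) and -0.34 at D14 (-0.90 to 0.17), within counting error at both times. *Dapl1*, a gene of resting T cells, was at 171, 119 and 74.4 CPM. It was the only one of 4 maturation genes past the minimum to reach 2-fold, at D14 (-1.20, -2.27 to -0.32), beside 1.95% of all genes that were lower. Of its 10 UMIs at D14, 8 were in 1 cell, and without that cell the ratio was -3.42 (-6.46 to -1.56). Without the members that carried foreign transcripts *Dapl1* was not past 2-fold (-0.92). *Ms4a4b*, a membrane protein that restrains T cell proliferation, was at 1241, 1231 and 967 CPM.

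Of the TCR complex and its nearest signaling genes, 16 were past the minimum. None reached 2-fold at D11 and 2 did at D14, both lower, beside 1.95% of all genes that were lower. These were the costimulatory receptor *Cd28*, at 462, 560 and 216 CPM (-1.10 at D14, -1.68 to -0.57), and *Cd5*, whose level follows the strength of self recognition, at 182, 131 and 81.9 CPM (-1.15, -2.16 to -0.30). *Trac* stepped down from 419 to 312 and 238 CPM and *Trbc2* from 1019 to 877 and 640 CPM. The kinase *Lck* was close to level, at 245, 237 and 223 CPM. Without the members that carried foreign transcripts *Cd28* and *Cd5* were at -0.93 and -0.86 at D14, and neither was past 2-fold. With TMM both were, and *Trac* with them. The adaptor *Trat1*, which binds the TCR complex, is not in the list and was picked after its values were seen, was at 326, 327 and 127 CPM.

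Among cytokine receptors and STATs, *Il7r*, the IL-7 receptor on which naive T cells depend, was at 907, 912 and 960 CPM and differed between libraries by less than counting error. *Stat3*, which relays IL-6 family signals, was at 145, 187 and 372 CPM, 2.57-fold higher at D14 (log2 1.36, 0.92 to 1.78). *Stat5b*, which relays IL-7 and IL-2, was at 343, 427 and 700 CPM (1.03 at D14, 0.72 to 1.33). The 50 *Stat3* UMIs at D14 came from 13 members and the 94 *Stat5b* UMIs from 16, with at most 10 and 14 in 1 cell. These were 2 of the 9 genes of the list past the minimum, beside 2.64% of all genes that were higher, and none of the 9 was lower by 2-fold. *Stat5b* was not past 2-fold with TMM (0.85) or without the D14 cell that held most of its UMIs (0.87), and *Stat3* was in both (1.18 each). In naive-like CD8 T cells *Stat3* was at 116, 225 and 255 CPM and *Stat5b* at 198, 119 and 142 CPM. In the CD8 cells, then, *Stat3* was also higher in both leukemic libraries and *Stat5b* was highest in the naive library.

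**Figure D2:**
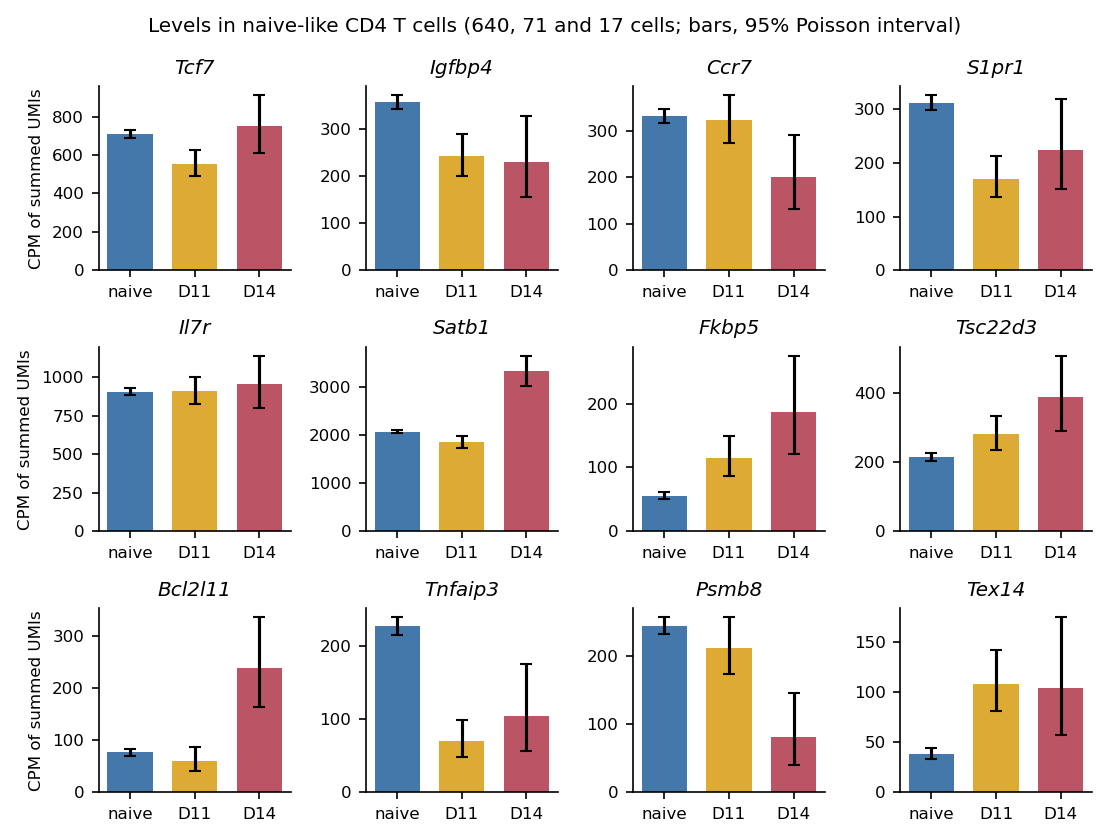
Levels of 12 genes in naive-like CD4 T cells as CPM of the summed UMIs of 640, 71 and 17 cells in the naive, D11 and D14 libraries, with bars for the exact 95% Poisson interval and axes from 0. *Fkbp5* steps from 56.1 to 115 and 186 CPM and *Il7r* stays between 907 and 960 CPM.

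*Fkbp5*, a chaperone of the glucocorticoid receptor and one of the genes that receptor induces most directly, was higher in both leukemic libraries. It was at 56.1, 115 and 186 CPM (338, 55 and 25 UMIs), 2.04-fold higher at D11 (log2 1.03, 0.59 to 1.45) and 3.32-fold higher at D14 (1.73, 1.08 to 2.32), and 28.9%, 33.8% and 64.7% of members held a UMI. The 25 UMIs at D14 came from 11 of the 17 members, with at most 6 in 1 cell. Without the cell that held most of its UMIs the ratio was 0.89 at D11 (0.42 to 1.32), under 2-fold, and 1.40 at D14 (0.65 to 2.06). *Tsc22d3*, encoding the glucocorticoid-induced leucine zipper GILZ, was at 215, 281 and 387 CPM (0.39, 0.12 to 0.65, and 0.85, 0.42 to 1.25). *Txnip*, the third gene of the list past the minimum, was at 756, 754 and 662 CPM. *Per1* was at 12.1, 20.8 and 0 CPM and *Ddit4* at 26.0, 27.1 and 52.1 CPM, with ratios within counting error. Without the members that carried foreign transcripts *Per1* was higher at D11 (1.22, 0.10 to 2.19, from 10 UMIs). *Fkbp5* was also higher in both leukemic libraries in the 4 other lymphocyte gates, though within counting error at D11 in the *S100a4*-positive cells. It was at 55.3, 119 and 131 CPM in naive-like CD8 T cells, at 70.1, 149 and 243 CPM in *Foxp3*-positive CD4 T cells, at 89.5, 107 and 174 CPM in *S100a4*-positive CD4 cells (30, 34 and 32 UMIs) and at 38.0, 109 and 182 CPM in B cells. The B cell gate does not exclude leukemia cells. *Fkbp5* was likewise higher in naive-like CD4 T cells with the 25, 12 and 2 members left out that carried hemoglobin, B cell or neutrophil transcripts, at 54.4, 112 and 219 CPM.

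*Bcl2l11*, encoding the death-promoting BH3 protein BIM that removes T cells deprived of cytokine, was at 76.5, 60.4 and 238 CPM, 3.11-fold higher at D14 (1.64, 1.07 to 2.16). Its transcript was found in 41.4%, 25.4% and 82.4% of members, and no D14 member held more than 5 of the 32 UMIs. In naive-like CD8 T cells it was at 95.8, 102 and 101 CPM and in B cells at 62.1, 44.7 and 78.3 CPM. In *Foxp3*-positive CD4 cells it was at 139, 96.8 and 50.7 CPM and in *S100a4*-positive ones at 65.6, 82.2 and 43.6 CPM, both lowest at D14, from 10 and 8 UMIs. *Bcl2*, the survival protein that BIM opposes, was at 954, 944 and 1354 CPM (0.51 at D14, 0.28 to 0.72). *Mcl1* was at 348, 312 and 268 CPM, and *Gimap4* and *Gimap6*, GTPases of lymphocyte survival, were at 308, 244 and 238 CPM and at 451, 319 and 439 CPM. *Bcl2l11* was the only gene of 9 in the survival list past the minimum to reach 2-fold at either time. Of all genes past the minimum, 2.64% were at least 2-fold higher at D14.

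*Tnfaip3*, encoding the NF-κB inhibitor A20, was lower in both leukemic libraries, at 228, 70.8 and 104 CPM. It was 3.21-fold lower at D11 (-1.68, -2.22 to -1.19) and 2.18-fold lower at D14 (log2 -1.13). Without the *Lef1* term of the rule the D14 log2 ratio was -0.31. In naive-like CD8 T cells it was at 163, 135 and 172 CPM. *Nfkbia*, encoding another NF-κB inhibitor, was at 175, 148 and 186 CPM. The AP-1 gene *Junb* was at 192, 229 and 402 CPM (1.07 at D14, 0.64 to 1.46), while *Jun* was at 168, 177 and 238 CPM and *Fos* at 51.2, 60.4 and 14.9 CPM. Of 8 immediate early and feedback genes past the minimum, *Tnfaip3* alone was past 2-fold at D11, and *Junb* and *Tnfaip3*, in opposite directions, at D14. Over all genes past the minimum, 1.09% were lower at D11, and 2.64% were higher and 1.95% lower at D14. *Junb* was not past 2-fold at D14 without the members that carried foreign transcripts (0.97), with TMM (0.88) or without the D14 cell that held most of its UMIs (0.81).

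Of 6 activation, effector and memory genes past the minimum, *Itgb1* at D11 and *Rora* at D14 were past 2-fold, both higher, and the medians were -0.01 and 0.02. Among all genes past the minimum, 0.632% were higher at D11 and 2.64% at D14. The *Rora* value was set by 1 cell that held 24 of its 31 UMIs, and without it the log2 ratio was -0.14 (-1.47 to 0.91). *Cd69*, the early activation antigen, was at 123, 115 and 96.7 CPM. *S100a6* and *S100a10*, which mark memory-like cells, were at 38.3, 81.2 and 89.3 CPM and at 189, 200 and 223 CPM in the members, against 904, 1189 and 1264 CPM and 1545, 1906 and 1422 CPM in the *S100a4*-positive CD4 cells. *Crip1*, another gene of memory-like cells, was at 104, 85.4 and 14.9 CPM in the members and at 1214, 1631 and 1662 CPM in the *S100a4*-positive cells. The D14 value in the members rests on 2 UMIs (log2 ratio -2.81, -5.86 to -0.95). The gates are separated by their *S100a4* terms, and the members also by *Lef1*. Gaps between the gates in these genes may thus follow from the rule and are not results. *Itgb1* was 2.03-fold higher at D11, at 132, 269 and 127 CPM, and without the D11 cell that held most of its UMIs it was under 2-fold (0.83, 0.53 to 1.12). Without that of D14 its D14 ratio was -2.04 (-3.92 to -0.68). The checkpoint receptor *Pdcd1* gave 2, 1 and 0 UMIs and *Lag3* gave 0, 1 and 0, which is at or under the limit of 3 UMIs in all libraries. Of proliferation genes, *Mki67* had 157, 1 and 0 UMIs, with a log2 ratio of -3.64 at D11 (-8.96 to -1.14), and *Top2a* had 262, 3 and 0 UMIs (-2.80 at D11, -5.08 to -1.23). In the naive library 1 cell held 84 of the *Mki67* UMIs, and the cell with most *Top2a* held 98. Leaving these out gave D11 ratios of -2.55 (-7.87 to -0.02) and -2.13 (-4.42 to -0.56), and the single *Mki67* UMI at D11 lay in a member with foreign transcripts. The cell cycle list summed to 698, 383 and 506 CPM (-0.86 at D11, -1.09 to -0.65, and -0.46 at D14, -0.83 to -0.12). None of its 2 genes past the minimum was past 2-fold, beside 1.09% and 1.95% of all genes that were lower at D11 and D14. At D14 the 26.0 CPM of *Mki67* in the naive library is close to the 22.3 CPM that a count of 0 allows, and its difference could not be measured.

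No interferon-stimulated or heat shock gene past the minimum was past 2-fold. Of all genes past the minimum, 0.632% were higher and 1.09% lower at D11, and 2.64% and 1.95% at D14. With 5 and 6 genes, a lack of calls therefore says little. The 5 interferon-stimulated genes past the minimum had medians of 0.04 and -0.14, with *B2m* at 1119, 1175 and 1012 CPM, and *Ifit1* and *Isg15* were at most 22.3 CPM in every library. The 6 heat shock genes past the minimum had medians of -0.13 and -0.43, and the summed list of 13 had a ratio of 0.00 at D11 and -0.31 at D14 (-0.48 to -0.14). Below the minimum, *Hsph1* and *Dnajb1*, the HSP110 and HSP40 partners of HSP70, were at 51.4, 97.9 and 52.1 CPM (0.93 at D11, 0.45 to 1.38) and at 42.5, 75.0 and 37.2 CPM (0.82 at D11, 0.27 to 1.33). The inducible chaperones *Hspa1a* and *Hspa1b* gave 4, 3 and 0 and 11, 3 and 2 UMIs in the members, or 0.663, 6.25 and 0 CPM and 1.82, 6.25 and 14.9 CPM. The ratio of *Hspa1a* was 3.24 at D11 (0.46 to 5.80), and those of *Hspa1b* were 1.78 (-0.70 to 3.70) and 3.03 (-0.19 to 5.22), within counting error. At D14 both were under the 22.3 CPM that a count of 0 allows. Other D14 gates held more of them, with 35.6 and 71.2 CPM in naive-like CD8 T cells and 32.7 and 163.5 CPM in the *S100a4*-positive CD4 cells. *Hspa8*, the constitutive family member, was at 637, 565 and 417 CPM.

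Of the genes lower at D14, *Psmb8*, a catalytic subunit of the immunoproteasome, was at 244, 212 and 81.9 CPM (-1.58, -2.58 to -0.73). *Psma2*, a core subunit of the proteasome, was at 114, 89.6 and 37.2 CPM. *Ltb*, encoding lymphotoxin β and picked after its values were seen, was at 471, 467 and 171 CPM. *Auts2* was at 148, 156 and 29.8 CPM (4 UMIs at D14) and in naive-like CD8 T cells at 307, 233 and 0 CPM. *Rnf125* was at 133, 135 and 44.6 CPM and *Ywhab* at 135, 108 and 44.6 CPM. *Gm20275*, a gene model without a known role, was at 111, 123 and 37.2 CPM. None of these was past 2-fold at D11.

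Of the genes lower at D11, *Ndufa3* and *Uqcr10*, small subunits of respiratory complexes I and III, were at 141, 56.2 and 127 CPM and at 132, 60.4 and 112 CPM. They were the 2 of 32 respiratory chain genes past the minimum that reached 2-fold at D11, beside 1.09% of all genes that were lower. The median of the list was -0.33 there, against -0.10 over all genes, and -0.15 at D14, against 0.05. Without the members that carried foreign transcripts *Uqcr10* was not past 2-fold. *Ndufb1-ps* was at 115, 37.5 and 59.5 CPM. *Bola2*, an iron-sulfur cluster factor, was at 115, 37.5 and 29.8 CPM, low at both times. *Klhdc2* had 744, 24 and 22 UMIs, with a D11 ratio of -1.30, and *Prdx6* was at 106, 47.9 and 127 CPM, both lowest at D11. *Gm11808* and *Gm10076*, the remaining pair by the rule, were at 107, 29.2 and 67.0 CPM and at 128, 56.2 and 52.1 CPM. *Tex14*, known from the intercellular bridges of germ cells, was at 38.5, 108 and 104 CPM (1.49, 1.03 to 1.93, and 1.44, 0.54 to 2.21), and at 52.4, 32.7 and 47.5 CPM in naive-like CD8 T cells.

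**Figure D3:**
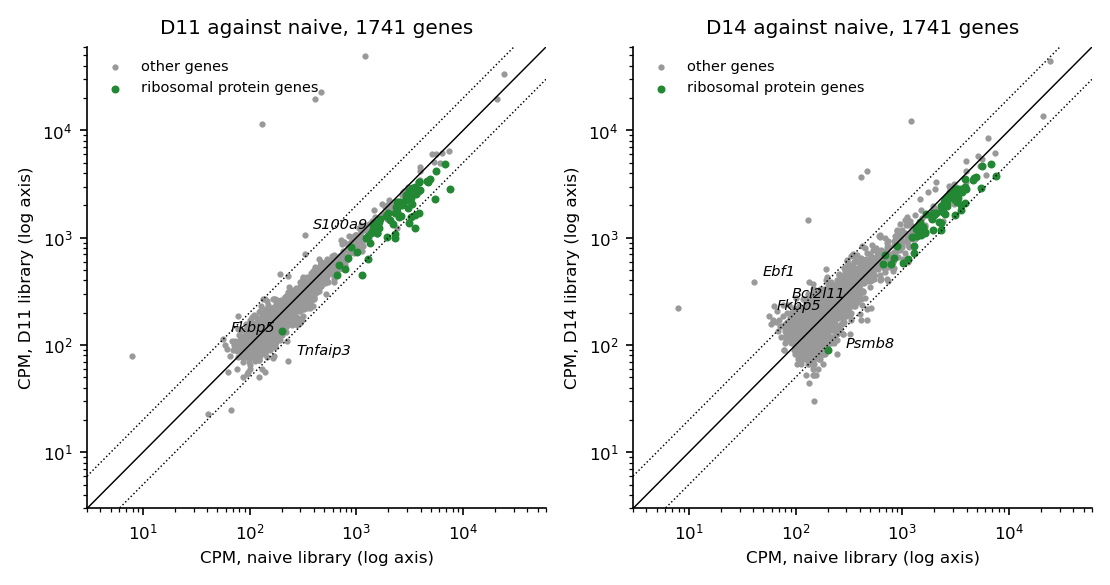
CPM of the 1741 genes past the minimum, D11 (left) and D14 (right) against naive, on log axes, with the line of equality and dotted lines at 2-fold; ribosomal protein genes are in green. At D11 11 genes lie above and 19 below the dotted lines, and at D14 46 and 34.

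Several of the largest ratios were those of genes of other cell types, or were set by single members. *Alas2*, the heme synthesis enzyme of red cell precursors, was at 6.80, 254 and 29.8 CPM. *Slc25a37*, *Bpgm*, *Prdx2* and *Mkrn1*, also abundant in red cells, were higher at D11 with it, and without the members that carried foreign transcripts *Alas2* was at 1.57, 2.73 and 9.13 CPM. Of the neutrophil list, *S100a9* was at 331, 1052 and 677 CPM, with 287 of the 505 UMIs at D11 in 1 cell, and *S100a8* was at 192, 460 and 506 CPM, with 148 of 221 UMIs at D11 in 1 cell. *Retnlg* was at 7.96, 79.2 and 223 CPM, with 23 of 30 UMIs at D14 in 1 cell that also held 22.6% hemoglobin, 49 UMIs of *S100a8* and 54 of *S100a9*. The pro-B list summed to 42.0, 22.9 and 424 CPM. Nearly all of it was *Ebf1*, at 40.8, 22.9 and 387 CPM, and 43 of its 52 UMIs at D14 were in 1 member with 8 UMIs of *Cd79a* and 21 of *Igkc*. A further D14 member held 24 of the 31 UMIs of *Rora*, together with 11 of *Nav2*, 1 of *Lef1* and none of *Tcf7* or *Satb1*. *Nav2* was at 18.4, 35.4 and 231 CPM, and the next 8 of its UMIs were in 1 other cell. *Ero1lb*, *Mast2* and *Sclt1*, also among the highest ratios at D14, had 20, 20 and 18 UMIs there. Without the *Rora* cell *Nav2* was at 161 CPM (log2 ratio 3.13, 2.36 to 3.82). With 17 members, 1 cell can set a D14 value, and the values without the members that carried foreign transcripts leave out the *Retnlg* and *Ebf1* cells but not the *Rora* cell, whose part in genes other than *Rora* and *Nav2* was not tested.

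Ribosomal protein transcripts took a smaller share of the RNA in the leukemic libraries. They made up 20.6%, 14.6% and 15.4% of the summed UMIs of naive-like CD4 T cells, and 20.7%, 16.3% and 15.7% with hemoglobin left out of the total. In naive-like CD8 T cells the shares without hemoglobin were 20.9%, 18.2% and 16.5%, in *S100a4*-positive CD4 cells 16.5%, 13.8% and 14.2%, and in B cells 12.4% in the naive library and 16.0% at D14, with D11 between them. The share was thus lower in both leukemic libraries in the 3 T cell gates. In B cells it was highest at D14, and at D11 it was below the naive share (12.1% against 12.3%) with hemoglobin kept in the total. The part of leukemia cells, which this gate does not exclude, in the B cell values was not tested. Ribosomal protein genes have many near-identical pseudogenes among which counting can split reads, so values of single genes are uncertain. Of 78 ribosomal protein genes past the minimum, 11 were at least 2-fold lower at D11 and none higher, beside 1.09% of all genes that were lower. Their median log2 ratio was -0.40 at D11 and -0.37 at D14, where 2 were at least 2-fold lower. The median was negative with every scaling tried, -0.34 and -0.56 with TMM, where 10 genes were at least 2-fold lower at each time. Without the members that carried foreign transcripts it was -0.21 and -0.27, and 6 and 1 genes were past 2-fold. A stricter barcode filter (500 genes, 5% mitochondrial UMIs) gave 10 and 5.

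The genes were not lower to the same extent. *Rps28* was lowest, at 3543, 1233 and 1816 CPM (-1.52 at D11, -1.64 to -1.40), followed by *Rps29* at 7504, 2843 and 3728 CPM (-1.40, -1.48 to -1.32) and *Rpl35* at 1142, 448 and 633 CPM (-1.35). *Rps27*, *Rpl38*, *Rps21*, *Rpl41*, *Rpl39*, *Rpl37* and *Rpl37a* followed with D11 ratios between -1.27 and -1.07, and *Rpl36a* was 2.01-fold lower. *Rpl36*, at -0.93, was the first gene not past 2-fold. With CPM of the totals, all 11, which were picked by their D11 ratios, had D14 ratios between -1.01 and -0.52. Each was less negative than at D11, and *Rps29* alone of them was past 2-fold at D14. *Rpl29*, at 200, 135 and 89.3 CPM, was the other ribosomal protein gene past 2-fold at D14 in these values. With TMM, *Rpl26* and, of the 11, *Rpl35*, *Rpl38*, *Rpl39*, *Rpl41*, *Rps21*, *Rps27* and *Rps28* were also past 2-fold at D14.

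**Figure D4:**
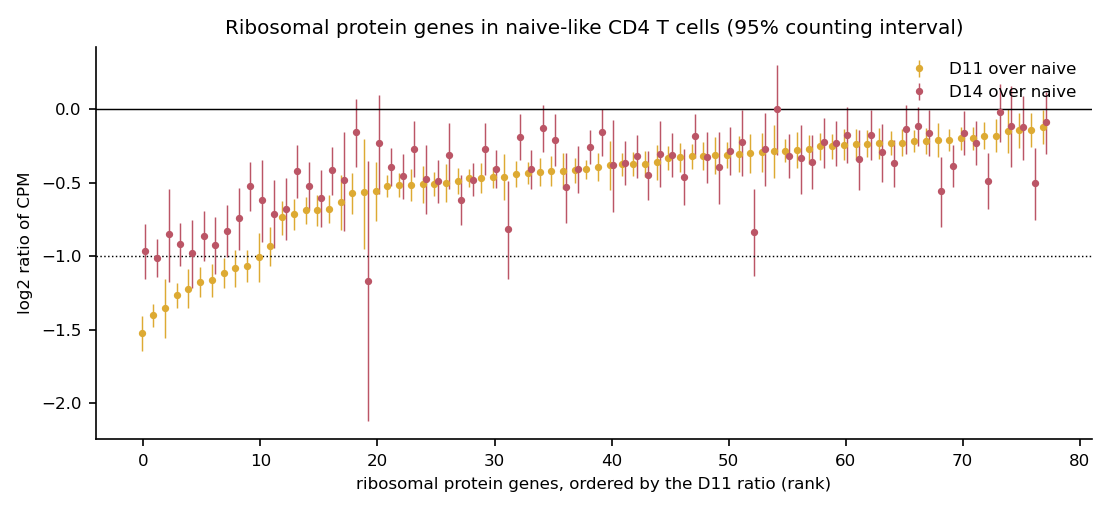
Log2 ratio of CPM to naive for 78 ribosomal protein genes in naive-like CD4 T cells, ordered by the D11 ratio, at D11 (yellow) and D14 (red), with bars for the 95% counting interval. The 11 genes at the left lie at or below the dotted line of 2-fold at D11, led by *Rps28* at -1.52, and their D14 points lie above their D11 points.

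By the median, the 11 genes had shorter transcripts than the other ribosomal protein genes. The longest annotated transcript had a median exon length of 672 bases (457 to 1443) in these 11 and 1151 bases in the other 67 ribosomal protein genes. The longest of the 11 was that of *Rps28*, which had the lowest ratio, and genes as short or shorter, such as *Rpl36* (383 bases), *Rplp1* (499) and *Rps15* (572) were not past 2-fold. In the remaining genes past the minimum, split into 4 groups of near equal size by exon length, the median log2 ratio was -0.18, -0.09, -0.05 and -0.06 from the shortest to the longest group at D11 and -0.14, 0.08, 0.18 and 0.17 at D14. Short transcripts outside the ribosomal protein genes thus also lay lower, by less. The part of transcript length in the ribosomal values was not tested.

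The promoters of the 11 genes were looked at for a feature that the levels did not use. The 7 letters CCGGAAG (reverse complement CTTCCGG), the core that ETS family factors bind, were searched for on both strands in the 250 bases before the RefSeq start (GRCm38.p6). They occurred in 5 of the 10 genes with an entry (50%), in 13 of 48 other ribosomal protein genes (27.1%), in 199 of 1307 other genes past the minimum (15.2%) and in 2115 of 27025 genes in all (7.83%). A match is a description of the letters only, and the genes and the letters were chosen after the values were seen. The 80 bases before the start, 5′ to 3′ on the strand of the gene, with CCGGAAG in capitals, are shown for the 4 genes with the match on that strand in this window and for *Rps28*, which had the lowest ratio and no match. *Rps21* has 2 annotated starts, and the window of the other start holds no match.
Rpl38, chr11:114668500-114668579, plus strand: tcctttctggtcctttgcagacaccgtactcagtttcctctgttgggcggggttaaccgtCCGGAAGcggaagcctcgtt
Rps21, chr2:180257299-180257378, plus strand: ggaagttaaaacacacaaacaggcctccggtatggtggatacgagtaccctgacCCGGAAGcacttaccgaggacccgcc
Rpl41, chr10:128549169-128549248, minus strand: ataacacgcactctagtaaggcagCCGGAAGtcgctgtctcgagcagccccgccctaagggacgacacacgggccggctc
Rpl37, chr15:5116533-5116612, plus strand: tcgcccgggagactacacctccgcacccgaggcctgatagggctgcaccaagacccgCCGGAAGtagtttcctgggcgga
Rps28, chr17:33824563-33824642, minus strand: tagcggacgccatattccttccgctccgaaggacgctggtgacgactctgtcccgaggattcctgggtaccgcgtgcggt

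Naive-like CD4 and CD8 T cells were then compared within the libraries, to see which genes set the CD4 cells apart from their closest relatives across all stages. This comparison pairs 2 sums from each library, leaves out the genes of the rule, and was tested with edgeR's quasi-likelihood test with library as a block, so that its p-values measure the spread of the difference over 3 libraries of different conditions. Of 5067 genes, 145 were higher in CD4 (2.86%) and 143 lower (2.82%) at a Benjamini-Hochberg adjusted p of 0.05. With DESeq2 the counts were 55 and 63. Without the naive library they were 35 and 37, without D11 83 and 111, and without D14 244 and 233.

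The CD4 cells were set apart by *St8sia6*, a sialyltransferase (chromosome 2, 13651021 to 13794064, minus strand), at 549, 560 and 506 CPM against 17.2, 110 and 29.7 CPM in the CD8 cells. The fitted log2 ratio was 4.09 (SE 0.29, edgeR adjusted p = 1.12e-10), and every CD4 value was above every CD8 value. *Igfbp4* was higher in CD4 by 2.26 (SE 0.24, adjusted p = 2.15e-07), at 99.6, 20.4 and 5.93 CPM in the CD8 cells. It was lower in the leukemic libraries in both gates, though the CD8 values there rest on 5 and 1 UMIs. Without the members that carried foreign transcripts, the CD4 ratios to naive were within counting error. The transcription factor *Runx1* was at 890, 889 and 1176 CPM against 406, 524 and 415 CPM (1.12, SE 0.12), and its relative *Runx3*, which directs the CD8 lineage, was at 40.5, 45.8 and 44.6 CPM against 245, 192 and 303 CPM (-2.48, SE 0.20). *Nxpe3*, *Myo10*, which encodes an unconventional myosin, and *Pde5a*, a cyclic GMP phosphodiesterase, were higher by 1.86, 3.68 and 2.43. *S100a9* and *S100a8* were also called higher, by 2.47 and 2.49, and neither was called once members with neutrophil, B cell or hemoglobin transcripts were left out (0.32 and 0.06).

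Of the genes lower in CD4, *Nkg7*, a granule protein of cytotoxic cells, had the smallest p. It was at 2.99, 4.17 and 0 CPM against 325, 303 and 166 CPM (-6.66, SE 0.29, edgeR adjusted p = 6.06e-15), and the chemokine *Ccl5* at 25.2, 4.17 and 0 CPM against 509, 2466 and 1181 CPM (-5.14, SE 0.30). *Ccl5* was highest at D11 in the CD8 gate. In the naive CD4 gate 74 of its 152 UMIs were in 1 cell. Whether the barcodes of the CD8 gate that held *Nkg7* or *Ccl5* were naive cells was not tested. *Ly6c2*, *Fgf13*, *Btbd11* and *Fam241a* were lower by log2 ratios of -6.20, -1.64, -2.92 and -3.02. *Gm44174* had no UMI in any naive-like CD4 T cell and 613, 62 and 47 UMIs in the CD8 gate, at least 587-fold, 40.6-fold and 12.5-fold lower against a floor of 3 UMIs per library. It is a long noncoding RNA (chromosome 6, 71353035 to 71373284, plus strand) that lies between *Cd8b1* and *Cd8a* on the same strand, and reads of these neighbours may have been counted to it, so its identity is uncertain.

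**Figure D5:**
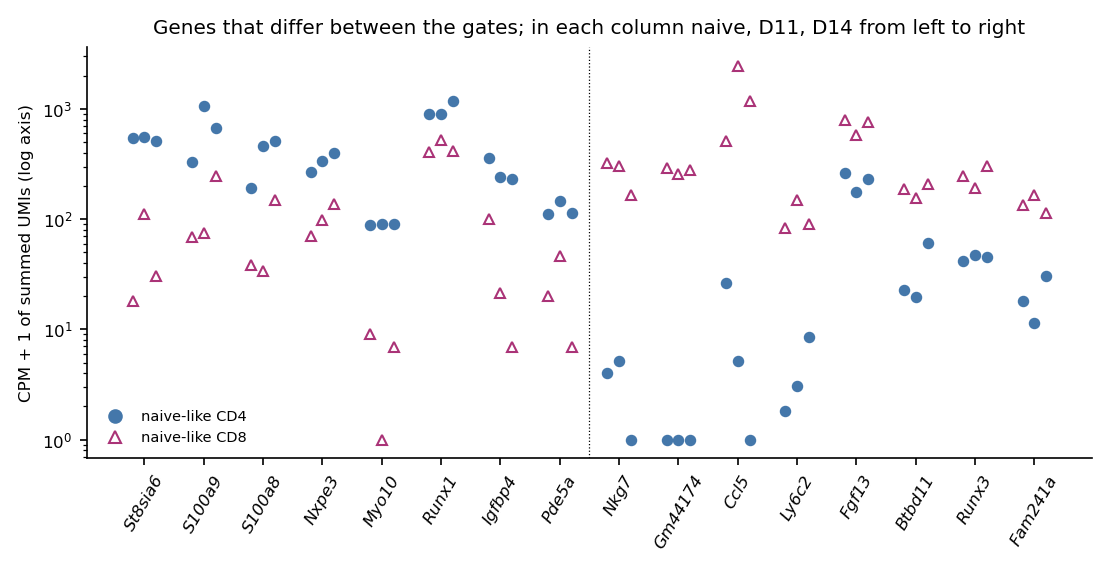
CPM + 1 of summed UMIs (log axis) of the 16 named genes in naive-like CD4 (filled circles) and naive-like CD8 T cells (open triangles), with the naive, D11 and D14 libraries from left to right in each column and genes higher in CD4 left of the dotted line. *St8sia6* is at 506 to 560 CPM in CD4 and at 17.2 to 110 CPM in CD8.

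By gene group, 5 of 15 transcription factors and quiescence genes tested were higher in CD4 (*Bach2*, *Slfn2*, *Bcl11b*, *Runx1* and *Satb1*) and none lower, with a median of 0.31 beside -0.00 over all genes tested. The counts of this and the following groups stand beside 2.86% of all 5067 genes that were higher and 2.82% that were lower. *Tcf7* differed by 0.34 (edgeR adjusted p = 0.0813) and was not called. Of 21 cytokine receptors and STATs, *Il6ra*, the IL-6 receptor (1.15), *Stat5b* and *Ifngr2* were higher, and *Ifngr1*, *Il10rb* and *Il2rb*, the IL-2 and IL-15 receptor chain (-3.31), were lower. Of 12 homing receptors, *Ccr9* (-3.57) and *Itgae* (-3.46), which place T cells in the gut, were lower, while *Ccr7* was not called (0.14, edgeR adjusted p = 0.836). Of 14 activation genes, *Cd40lg*, the helper T cell ligand that licenses B cells, was higher (3.48), and *S100a10*, *Nkg7*, *Ccl5*, *Lgals1* and *Ahnak* were lower. The inhibitory receptor *Btla* was higher by 1.74. *Cd5* was higher (0.74, adjusted p = 0.0207) and *Themis* lower among 17 TCR genes. None of 80 ribosomal protein genes, 78 respiratory chain genes or 11 glycolysis genes was called in either direction, with medians of -0.08, -0.10 and -0.17. Calls were also made in other lists. Higher in CD4 were 2 of 14 immediate early and 2 of 14 interferon-stimulated genes, with none lower. Lower were 2 of 9 heat shock and 1 of 15 survival genes, with none higher. The lists of 10 maturation and 5 glucocorticoid-induced genes each gave 1 call in each direction.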

How the data were processed

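The authors deposited filtered Cell Ranger matrices of raw counts (UMIs per gene and barcode) from 10x Genomics 3′ v3 capture. The matrix headers name version 5.0.1 and the submitters' processing notes version 7.1.0, with mm10. The deposited counts name no cells, so members were found by rule. The rule, its members and the gene lists were chosen with earlier results of these data known. UMIs were summed over members and scaled to CPM, with exact Poisson, Clopper-Pearson and conditional binomial intervals (scipy 1.17.1). A gene was past the minimum at a mean of 100 CPM over 3 libraries, and a difference was called at 2-fold, with no test, since each condition had 1 library. Barcodes scored by Scrublet (scanpy 1.11.5) as doublets were kept in the main values, and included 28, 1 and 1 members. The CD4 and CD8 sums were fitted with edgeR 4.0.16 (R 4.3.3; TMM, filterByExpr, quasi-likelihood), with DESeq2 1.42.0 as an alternative.

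Named genes were the marker genes, by level or ratio 2 to 4 members of each list, the 8 highest and 8 lowest ratios at each time among genes that reached 100 CPM in the higher library and UMIs in at least 5 cells and 10% of its cells (ribosomal protein, mitochondrial, hemoglobin and rule genes and repeated symbols left out), and the 8 genes of smallest p in each direction between CD4 and CD8. Further members of some lists, and genes outside the lists such as *Trat1* and *Ltb*, were picked after their values were seen, and a few list members are not reported here. Positions and exon lengths are from GENCODE release M21 (GRCm38), which holds 32158 of the 32285 identifiers, and promoters from RefSeq.

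The steps were tested on simulated data. For the CD4 and CD8 fit the counts were drawn with a fixed spread between sums. For the 2-fold calls they were drawn from the naive levels with counting error only. Neither held spread between cells or transcripts of other cells, so the rates of false calls do not cover these. The CD4 and CD8 fit recovered 56 of 100 genes changed 2-fold and 99 of 100 changed 4-fold, with 4 false calls among 5083 genes. Of the genes changed 2-fold, 40 of 84 at D11 and 34 of 81 at D14 were past 2-fold, and of those changed 4-fold, 75 of 75 at D11 and 80 of 80 at D14, as were 1 of 1572 and 8 of 1636 unchanged genes (1731 and 1797 genes in all). Alternatives covered barcode filters, doublets, the rule, the denominator, scaling, the gene minimum, depth and libraries. The alternative without members over 1% hemoglobin, 2 B cell or 10 neutrophil UMIs, and that without the 1 cell of a library with most UMIs of a gene, were chosen after seeing the data.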

Additional observations from a re-analysis of the deposited data

How the results depend on the processing

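The ratio of the D11 to the naive share, 0.0926, was 0.0713 over all deposited barcodes, 0.134 over barcodes under 10% hemoglobin and 0.261 over CD3-positive barcodes, and the D14 ratio of 0.0229 was 0.104 over the last. The numbers of genes past 2-fold moved with the minimum and with depth. At D11, 11 were higher and 19 lower. These became 20 and 48 at a minimum of 50 CPM, 7 and 11 at 200 CPM, and 40 and 71 with sums thinned to the smallest total. The lower genes numbered 11 with at most 1% hemoglobin per member, 10 without members that carried foreign transcripts, and 10 (beside 14 higher) when ribosomal, mitochondrial and hemoglobin genes were taken out of the totals. At D14, 46 were higher and 34 lower. These became 132 and 133 at 50 CPM, 16 and 9 at 200 CPM, 23 and 67 with TMM, and 51 and 70 without those 3 gene classes in the totals. The higher genes numbered 87 with thinned sums and the lower ones 20 without the Lef1 term. More genes were tested at lower minimums, and thinning leaves fewer UMIs; the cause of the other moves was not tested.

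Of the log2 ratios of named genes over the alternatives, 601 moved little, 65 moved further and 11 reversed. Reversed were Slc25a37 at D11 (-0.40 with at most 1% hemoglobin, -0.36 without foreign transcripts), Mkrn1 at D11 (-0.19 and -0.27), Nav2 at D11 (-1.58 with thinned sums), and S100a9 and S100a8 at D14 (-0.14 and -0.31 with at most 1% hemoglobin, though 3.06 and 2.71 without foreign transcripts, from 1.03 and 1.40). Leaving out, for each gene, the 1 cell of a leukemic library with most of its UMIs, an alternative chosen after seeing the data, also reversed S100a8 at D11 (-0.31) and S100a9, S100a8 and Rora at D14 (-0.12, -0.30 and -0.14). Of list medians, 287 moved little and 13 further.

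Between CD4 and CD8, DESeq2 called 55 higher and 63 lower, all 118 among the 288 of edgeR, and edgeR without the library block called 66 and 80, all 146 among them. Leaving out 1 library gave 35 to 244 higher and 37 to 233 lower. No paired analysis was possible because each condition has 1 library and the conditions share no replicate numbers beyond it; the library block of the CD4 and CD8 fit is the only pairing.

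With 17 members at D14, a gene at 100 CPM has few UMIs, and only large ratios exceed counting error. Nothing here separates a condition from its library.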

Other observations

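Outside the lists, the most abundant transcript of naive-like CD4 T cells apart from hemoglobin was *Gm42418*, which overlaps a ribosomal RNA repeat, at 24237, 33304 and 44077 CPM in the naive, D11 and D14 libraries. Its neighbour *AY036118* was at 330, 702 and 327 CPM. *Malat1*, a nuclear long noncoding RNA, was at 21001, 19592 and 13574 CPM, and *Tmsb4x*, which encodes the actin-binding thymosin β4, at 6052, 4991 and 3840 CPM. *Ssbp2* and *Kpna1*, a cofactor of LIM domain factors and a nuclear import receptor, were at 302, 254 and 618 CPM and at 528, 24 and 32 UMIs, both over 2-fold higher in CPM at D14. These genes were picked after their values were seen.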
